A study of Mus musculus with 18 samples.

Results

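The miR-181 family was followed through the 3 sample types of a mouse model of ultraviolet-induced cutaneous squamous cell carcinoma (cuSCC). Its members were taken by name from a table of 1251 microRNA entries, and 6 entries were found: the guide arms mmu-miR-181a-5p, mmu-miR-181b-5p, mmu-miR-181c-5p and mmu-miR-181d-5p, and the passenger arms mmu-miR-181a-1-3p and mmu-miR-181a-2-3p (mmu, for mouse, is left out of the names below except where a member is first described). The family was picked with its levels in these sample types already known, so the differences between sample types below are descriptions and carry no p-value for a member.

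Small RNA was sequenced from 18 samples, made of chronically irradiated but nonlesional skin (CHR), papilloma (PAP) and cuSCC from each of 6 mice (n = 6 for each sample type). The animals were littermate female SKH-1E Hairless mice, a strain that lacks the Hairless gene, numbered 2, 3, 7, 8, 9 and 10. All of them had been irradiated with solar simulators over months from young adulthood and were killed some time after the last exposure, so the CHR controls had received the same irradiation as the lesions and no unirradiated skin was compared. The comparisons address how the microRNA content changes from damaged skin through a precancerous papilloma to carcinoma.

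Values are the log2 of each microRNA's share of the usable reads in ppm, quantile normalised between the 18 libraries, which sets each microRNA by its rank within its library. The lowest value in the table, 3.32, stands for a microRNA that was not detected, and the highest is 18.47. The number of detected entries ranged in CHR from 200 to 328, in PAP from 163 to 281 and in cuSCC from 236 to 365. The read depth of each library is not known here. The PAP and cuSCC libraries of mouse 10 stood apart: each had the fewest detected entries of its sample type, and they correlated with the other libraries of their type at r = 0.907 to 0.918 and 0.942 to 0.948 (all pairs, 0.907 to 0.971 in PAP and 0.942 to 0.985 in cuSCC). No pair of libraries held identical values. Of 7 microRNAs that mark epithelium, the miR-200 family with miR-203-3p and miR-205-5p, 6 were detected in all 18 libraries, and their summed level ran from 17.50 to 18.51 (CHR), 17.77 to 18.55 (PAP) and 17.50 to 18.54 (cuSCC).

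A microRNA hairpin gives a 5p and a 3p arm, one from each side of its stem. The arm that is kept by Argonaute proteins and guides them to messenger RNAs is called the guide, and the opposite arm, usually far rarer, the passenger. Targets are chosen mainly by the seed, bases 2 to 8 of the mature strand. The miR-181 family is best known from lymphocytes, where miR-181a tunes T cell receptor signalling, and it is made in many other tissues. Mature miR-181a-5p comes from a pair of hairpins on different chromosomes, so its own level cannot tell which of them was the source, whereas each hairpin has a 3p arm of its own.

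The mature sequences show what the 6 members share and where they part. They are given 5′ to 3′ from RefSeq (GRCm38.p6), with the seed in capitals; all 6 names were matched.
mmu-miR-181a-5p: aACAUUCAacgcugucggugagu
mmu-miR-181b-5p: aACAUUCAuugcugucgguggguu
mmu-miR-181c-5p: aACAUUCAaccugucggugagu
mmu-miR-181d-5p: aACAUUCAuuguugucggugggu
mmu-miR-181a-1-3p: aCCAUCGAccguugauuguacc
mmu-miR-181a-2-3p: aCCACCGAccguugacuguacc

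The 4 guide arms had the same seed, ACAUUCA, which no other mature mouse microRNA among 1679 names had. Counted from 1 at the 5′ end, miR-181b-5p differed from miR-181a-5p by A9U, C10U and A21G and an extra base at its 3′ end. miR-181d-5p differed from miR-181a-5p by A9U, C10U, C12U and A21G. All of these lie outside the seed. miR-181c-5p differed from miR-181a-5p by 1 edit, a missing base. The passenger arms of the miR-181a hairpins differed from each other by U5C and U16C. The first of these lies in the seed, so that miR-181a-1-3p had the seed CCAUCGA, which was also that of miR-181c-3p, and miR-181a-2-3p had CCACCGA, which no other name had. How reads that match several of these sequences were divided is not given in the sources used here, so the split between near-identical arms is uncertain.

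The pair of miR-181a hairpins is shown because the results turn on which of them an arm belongs to. Both mature arms are in capitals and the sequences are those of the RNA strand. Mir181a-1 lies at chr1:137966455-137966541 on the plus strand, in an intron of the noncoding transcript Gm4258. Mir181a-2 lies at chr2:38852735-38852810 on the plus strand, opposite to an intron of Nr6a1, which encodes an orphan nuclear receptor.
Mir181a-1: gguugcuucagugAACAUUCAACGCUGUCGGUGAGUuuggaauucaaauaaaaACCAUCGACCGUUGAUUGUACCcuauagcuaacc
Mir181a-2: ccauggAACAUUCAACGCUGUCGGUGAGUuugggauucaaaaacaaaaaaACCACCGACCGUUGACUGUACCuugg

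Each miR-181a hairpin has a miR-181b hairpin close behind it on the same strand. Mir181b-1 lies at chr1:137966639-137966718 and Mir181b-2 at chr2:38853830-38853918. Mir181d lies at chr8:84178716-84178787 on the minus strand, in an intron of the germ cell gene Nanos3 together with Mir181c, whose 5p arm spans chr8:84178924-84178945.

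All 6 members were detected in at least 6 of the 18 libraries, and so were among the 293 entries tested with limma. In PAP against CHR, 4 of 6 members fell, meaning that their adjusted p was under 0.05 (Benjamini-Hochberg over the 293 entries), and none rose. Over all tested entries, 18.4% fell and 14% rose. In cuSCC against CHR 1 member fell and none rose, where 22.2% of all entries fell and 20.1% rose. In cuSCC against PAP no member passed in either direction (limma), where 9.22% of all entries rose and 2.39% fell. The thresholds of the study, a fold change of at least 1.5 and an unadjusted p under 0.05, were also applied, with the p of limma. By these, miR-181a-1-3p was counted as higher in cuSCC than in PAP, where 52 of 293 entries were higher. miR-181a-2-3p and miR-181a-5p were counted as lower in cuSCC than in CHR, where 77 of 293 entries were lower. The median log2 difference of the members was -1.59, -0.65 and 0.41 in the 3 comparisons, beside -0.23, 0.11 and 0.21 over all tested entries. These counts are descriptions, since the members were chosen with this contrast known.

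The split of all entries depended on how undetected entries were entered. When undetected entries were given the lowest detected value in the same library, 63 entries rose and 37 fell in PAP against CHR, in place of 41 and 54. In cuSCC against PAP, 18 rose and 62 fell, in place of 27 and 7. The medians over all entries then became 0.44, -0.04 and -0.48, while the same 4, 1 and 0 members were called.

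**Figure D1:**
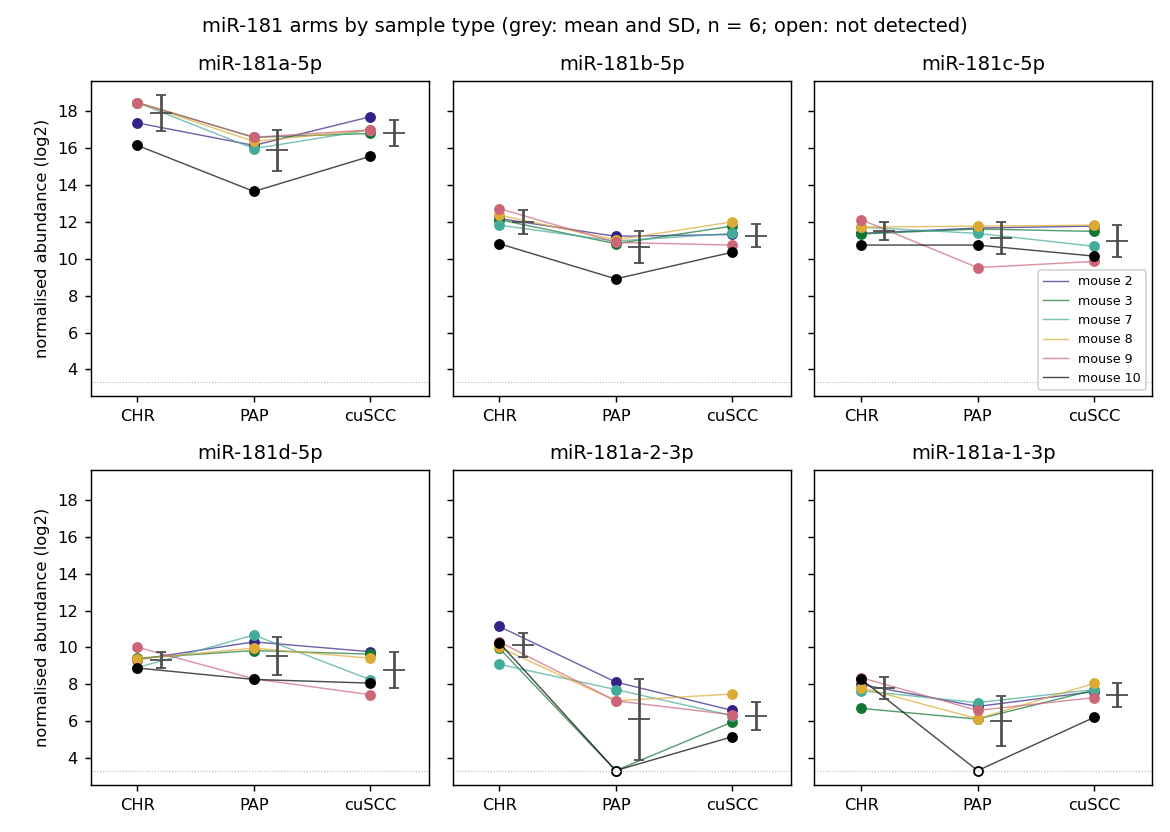
Normalised abundance (log2 scale) of the 6 members in CHR, PAP and cuSCC. Each point is 1 library, lines join the libraries of 1 mouse, open points were not detected, and grey marks give the mean and SD (n = 6); miR-181a-2-3p fell from 10.13 in CHR to 6.12 in PAP and 6.31 in cuSCC.

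The lesions differed from irradiated skin by the largest amount, among the 6 members, in the passenger arm mmu-miR-181a-2-3p. In CHR it was at 9.09 to 11.14 with a median of 10.14 (log2 level). In PAP it was not detected in mice 3 and 10, and stood at 8.13 in mouse 2, 7.72 in mouse 7, and 7.10 in mice 8 and 9. In cuSCC it was detected in all 6 mice, at 5.16 to 7.48 with a median of 6.33. Every PAP and every cuSCC library was below every CHR library, and the lesions overlapped with each other. Among all tested entries, 9.56% had all PAP libraries below all CHR libraries and 10.6% had all cuSCC libraries below all CHR libraries.

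The mean level of miR-181a-2-3p was 10.13 ± 0.66 in CHR, 6.12 ± 2.20 in PAP and 6.31 ± 0.76 in cuSCC (SD, n = 6). It fell by 4.01 on the log2 scale in PAP (SE 0.85, 95% interval -5.86 to -2.17, 16.2-fold). It fell by 3.82 in cuSCC (SE 0.40, 95% interval -4.69 to -2.96, 14.2-fold). Both passed with any 1 mouse left out, when the difference was -4.54 to -3.43 in PAP and -4.08 to -3.57 in cuSCC. Without mouse 10 they were -3.43 and -3.57. Its rank among the entries of a library had a median of 80 in CHR, 153.5 in PAP and 174 in cuSCC.

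The size of the fall in PAP included 2 undetected libraries, which the table sets to 3.32 although the lowest detected value was 5.40 in the PAP of mouse 3 and 6.83 in that of mouse 10. With these set to the lowest detected value, the PAP to CHR difference of miR-181a-2-3p was -3.08, and it still passed. The 4 PAP libraries in which it was detected averaged 7.51 ± 0.50 (SD, n = 4) and lay below the lowest CHR library, 9.09. Between cuSCC and PAP the difference was 0.19 (SE 0.87, 95% interval -1.69 to 2.07), and it became -0.74 with undetected values at the lowest detected value.

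The passenger arm of the other hairpin, mmu-miR-181a-1-3p, fell in papilloma, while its difference in carcinoma did not pass. Its level in CHR was 6.70 to 8.36, with a median of 7.91. In PAP it was not detected in mouse 10 and was 6.11 to 7.01 in the other libraries. In cuSCC it was 6.21 to 8.05, with a median of 7.65. The CHR and cuSCC libraries overlapped, and the lowest CHR library, that of mouse 3, was inside the range of PAP.

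The mean level of miR-181a-1-3p was 7.80 ± 0.60 in CHR, 5.99 ± 1.36 in PAP and 7.43 ± 0.64 in cuSCC (SD, n = 6). The PAP to CHR difference was -1.81 (SE 0.57, 95% interval -3.03 to -0.58), and it was lower in PAP in 6 of 6 mice. It did not pass without mouse 2, 8 or 9, nor with mouse as a replicate block (95% interval -3.14 to -0.47), and was -1.18 without mouse 10. The undetected library weighed on its size: the difference was -1.22 when given the lowest detected value and -1.07 with a lowest value of 100 ppm, both of which passed. The cuSCC to CHR difference was -0.38 (SE 0.37, 95% interval -1.16 to 0.41), with 3 mice lower and 3 higher. Between cuSCC and PAP it was 1.43 (SE 0.58, 95% interval 0.18 to 2.68), higher in the 5 mice in which the arm was detected in PAP, which did not pass in limma with all mice but did without mouse 10, at 1.14. It was 0.85 with the lowest detected value in place of the undetected one and 0.77 with a lowest value of 100 ppm, and passed in neither.

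Within a library, the order of the passenger arms was opposite in irradiated skin and carcinoma. The log2 level of miR-181a-2-3p minus that of miR-181a-1-3p was 1.43 to 3.27 in CHR, positive in 6 of 6 libraries, and averaged 2.33 ± 0.73 (SD, n = 6). In cuSCC it was -1.73 to -0.57, negative in 6 of 6 libraries, and averaged -1.12 ± 0.40 (SD, n = 6). The mean of PAP lay between them. The difference there was 0.52 to 1.32 in the 4 libraries with both arms detected, averaging 0.88 ± 0.35 (SD, n = 4), and the 6 libraries together gave 0.12 ± 1.49 (SD, n = 6). The CHR, PAP and cuSCC ranges of the libraries with both arms detected did not overlap, but these leave out the PAP of mice 3 and 10. In the PAP of mouse 3, miR-181a-1-3p was at 6.11 and miR-181a-2-3p was undetected, where the lowest detected value was 5.40. The difference of that library was negative for any value at or below 5.40, as in all cuSCC libraries. It was -2.79 with the undetected arm at 3.32. In the PAP of mouse 10 neither arm was detected, so the sign there is unknown. With the lowest detected value of the library in place of an undetected arm, the 6 PAP libraries gave 0.47 ± 0.73 (SD, n = 6). No test was made, since both levels were used to choose the members.

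**Figure D2:**
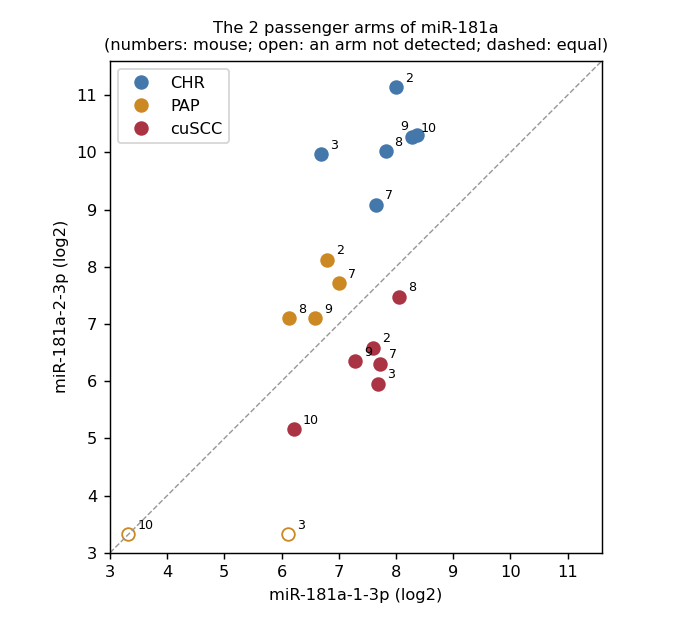
Log2 level of miR-181a-2-3p against that of miR-181a-1-3p in the 18 libraries, with the mouse number at each point, open points where an arm was not detected and a dashed line of equal levels. The 6 CHR libraries lie above the line by 1.43 to 3.27 and the 6 cuSCC libraries below it by 0.57 to 1.73.

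The guide arm that both hairpins give, mmu-miR-181a-5p, was among the most abundant microRNAs of irradiated skin. In CHR it was at 16.15 to 18.47, and 4 of 6 libraries, those of mice 3, 7, 8 and 9, had it at the highest value of the table, that is at rank 1. In PAP it was at 13.65 to 16.59 with a median of 16.26 and a median rank of 8.5. In cuSCC it was at 15.56 to 17.71, with a median of 16.99 and a median rank of 5. Mouse 10 had the lowest level in each of the 3 sample types. The value at rank 1 is the same in every library, so a larger lead of miR-181a-5p in CHR could not have shown.

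The mean level of miR-181a-5p was 17.90 ± 0.96 in CHR, 15.89 ± 1.12 in PAP and 16.84 ± 0.70 in cuSCC (SD, n = 6). It fell by 2.01 on the log2 scale in PAP (SE 0.56, 95% interval -3.24 to -0.79, 4.04-fold) and was lower there in 6 of 6 mice, although the CHR level of mouse 10 was within the range of PAP. The fall did not pass without mouse 3, 7 or 8, with a difference of -2.17 to -1.92 over the mice left out (-1.92 without mouse 10). It passed with mouse as a replicate block (95% interval -2.66 to -1.36). The cuSCC to CHR difference was -1.06 (SE 0.46, 95% interval -2.04 to -0.08), lower in 5 of 6 mice. It did not pass over the tested entries, but did with mouse as a replicate block (95% interval -1.86 to -0.26) and without mouse 10 (-1.15). Between cuSCC and PAP the difference was 0.95 (SE 0.52, 95% interval -0.16 to 2.07), higher in 6 of 6 mice. With mouse as a replicate block its 95% interval was 0.19 to 1.72, but it did not pass over the tested entries.

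The distance from the guide to its passengers was taken within each library. In the 4 CHR libraries in which miR-181a-5p was at the highest value of the table, that value is set by rank. The distance in the reads themselves may have been larger or smaller there. miR-181a-5p lay above miR-181a-2-3p by 7.77 ± 1.39 in CHR and by 10.54 ± 0.55 in cuSCC (log2 difference within a library, SD, n = 6). In PAP it was 9.77 ± 1.91 over all 6 libraries and 8.76 ± 0.72 (SD, n = 4) where both were detected. Against miR-181a-1-3p the distance was 10.10 ± 1.35 in CHR, 9.89 ± 0.60 in PAP and 9.42 ± 0.42 in cuSCC (SD, n = 6), and these ranges overlapped.

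mmu-miR-181b-5p, whose hairpins accompany those of miR-181a, had a similar order of levels, lowest in PAP. It was at 10.82 to 12.72 with a median of 12.15 in CHR, 8.91 to 11.22 with a median of 10.92 in PAP, and 10.36 to 12.002 with a median of 11.35 in cuSCC. The mean was 12.01 ± 0.65, 10.64 ± 0.86 and 11.26 ± 0.62 in the 3 types (SD, n = 6). As with miR-181a-5p, the lowest CHR library and the lowest library of both lesions were those of mouse 10.

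It fell by 1.37 on the log2 scale in PAP (SE 0.43, 95% interval -2.30 to -0.44) and was lower there in 6 of 6 mice, but did not pass without mouse 2, 3, 7, 8 or 9. Without mouse 10 it passed, at -1.26. In cuSCC against CHR the difference of miR-181b-5p was -0.74 (SE 0.37, 95% interval -1.54 to 0.05), lower in 6 of 6 mice, and it passed without mouse 10, at -0.80. In cuSCC against PAP it was 0.63 (SE 0.43, 95% interval -0.30 to 1.55), higher in 5 of 6 mice.

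The guide arms from the chromosome 8 hairpins, mmu-miR-181c-5p and mmu-miR-181d-5p, passed in no comparison. miR-181c-5p was between 10.74 and 12.12 in CHR, between 9.52 and 11.77 in PAP, and between 9.85 and 11.82 in cuSCC, with medians of 11.55, 11.497 and 11.08. Its mean was 11.504 ± 0.47, 11.12 ± 0.86 and 10.96 ± 0.85 (SD, n = 6). The sample types overlapped over most of their range. The log2 difference was -0.39 in PAP against CHR (95% interval -1.25 to 0.47), -0.54 in cuSCC against CHR (95% interval -1.38 to 0.29) and -0.16 in cuSCC against PAP (95% interval -1.20 to 0.88).

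miR-181d-5p was between 8.89 and 10.02 in CHR, between 8.27 and 10.68 in PAP, and between 7.44 and 9.77 in cuSCC. The medians were 9.35, 9.90 and 8.83, with means of 9.32 ± 0.41, 9.56 ± 1.03 and 8.76 ± 0.97 (SD, n = 6). The PAP to CHR difference was 0.23 (95% interval -0.72 to 1.18) and that of cuSCC to CHR -0.56 (95% interval -1.45 to 0.33). Between cuSCC and PAP it was -0.79 (SE 0.55, 95% interval -1.98 to 0.39), lower in cuSCC in 6 of 6 mice. These intervals leave room for differences of over 1 log2 unit, so the samples do not show that the levels were alike.

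**Figure D3:**
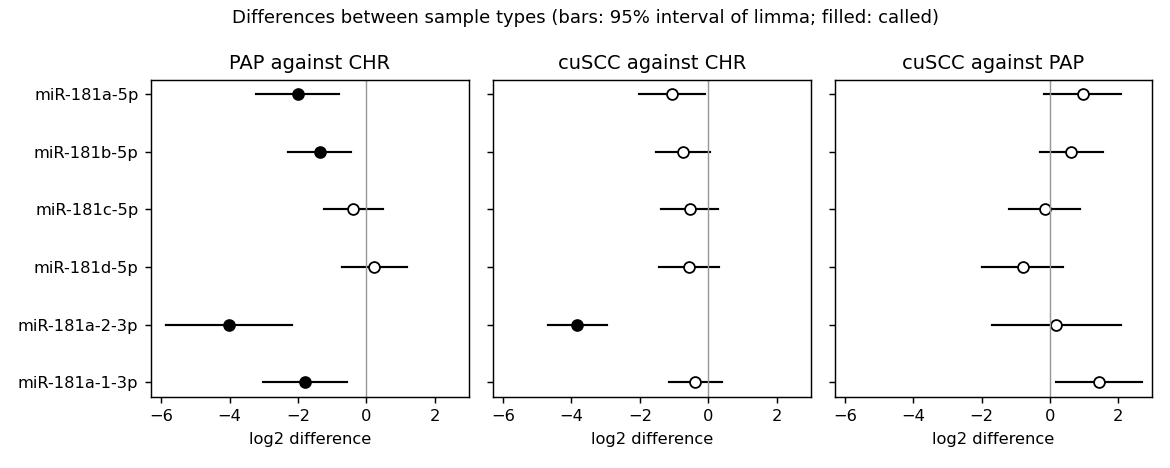
Log2 difference of each member in the 3 comparisons of sample types, with the 95% interval of the limma fit as a bar; filled points had an adjusted p under 0.05 over the 293 tested entries. The 4 filled points of PAP against CHR lie between -4.01 and -1.37, and the 1 of cuSCC against CHR at -3.82.

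The order of the members within a library also differed between the sample types. In CHR it was miR-181a-5p, miR-181b-5p, miR-181c-5p, miR-181a-2-3p, miR-181d-5p and miR-181a-1-3p, and each step held in 6 of 6 libraries. Here a passenger arm stood above a guide arm of the family: miR-181a-2-3p was above miR-181d-5p by 0.81 ± 0.65 (log2 level, SD, n = 6). In cuSCC miR-181a-2-3p was last, below miR-181a-1-3p in 6 of 6 libraries, and miR-181d-5p was above both passengers. There miR-181b-5p and miR-181c-5p differed by 0.30 ± 0.47 (SD, n = 6), less than their spread. In PAP miR-181c-5p was second and above miR-181b-5p in 5 of 6 libraries, by 0.48 ± 1.04 (SD, n = 6), again less than the spread. These steps compare read shares of RNAs of nearly equal length, and differences in how well each is cloned into a library were not measured.

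Of the 4 remaining arms of the family, 3 were not detected at this depth. miR-181b-1-3p, miR-181b-2-3p and miR-181d-3p were at the lowest value in all 18 libraries. miR-181c-3p, the passenger of miR-181c, was detected in 17 libraries, at 6.34 to 8.05 in CHR and 4.49 to 7.21 in cuSCC. In PAP it was not detected in mouse 10 and was 6.11 to 7.58 in the other libraries. It fell by 1.43 on the log2 scale in cuSCC against CHR, which did not pass with mouse as a replicate block, with a lowest value of 100 ppm, or without mouse 2, 7, 9 or 10. The distance from miR-181c-5p to miR-181c-3p was 4.07 ± 0.68 in CHR and 4.95 ± 0.42 in cuSCC (log2, SD, n = 6). In PAP it was 4.40 ± 1.06 (SD, n = 5) where both arms were detected, and 4.91 ± 1.55 (SD, n = 6) with the undetected library of mouse 10.

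The spread between mice within a sample type did not choose the members, so it was asked whether arms moved together across the 6 mice. There were 12 relations, of 4 pairs in 3 sample types, and none passed (exact permutation tests, two-sided; lowest adjusted p = 0.133 for Pearson's r and 0.267 for Spearman's rho, Benjamini-Hochberg over the 12). Pearson's r was positive in 10 of the 12, but several of these turned negative without the 2 mice farthest from the median or with undetected values at the lowest detected value. The passenger arms miR-181a-1-3p and miR-181a-2-3p gave the lowest p, in PAP, with r = 0.745 (exact permutation test, p = 0.0111) and rho = 0.912 (exact permutation test, p = 0.0222), but 1 value of the first and 2 of the second were undetected there. Without the 2 mice farthest from the median, r was 0.704. With undetected values at the lowest detected value the pair gave r = 0.690 (exact permutation test, p = 0.122) and rho = 0.522 (exact permutation test, p = 0.3), and r = 0.369 without the 2 farthest mice. In cuSCC the same pair gave r = 0.848 (exact permutation test, p = 0.0486) and rho = 0.543 (exact permutation test, p = 0.297), and r = -0.287 without mice 8 and 10, so the relation rested on those samples. In CHR it gave r = 0.344 (exact permutation test, p = 0.442) and rho = 0.771 (exact permutation test, p = 0.103).

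miR-181a-5p and miR-181b-5p gave r = 0.813 in CHR, 0.943 in PAP and 0.570 in cuSCC (exact permutation tests, p = 0.1, 0.144 and 0.258), with rho of 0.507, 0.058 and 0.213 (exact permutation tests, p = 0.333, 0.933 and 0.733). Without the 2 mice farthest from the median, r was -0.427 in PAP (mice 3 and 10 left out) and -0.362 in cuSCC (mice 2 and 10 left out), so these relations rested on those samples, and in CHR none could be had because the other 4 values of miR-181a-5p were tied. miR-181a-5p and miR-181a-2-3p gave r of -0.445, 0.496 and 0.716 (exact permutation tests, p = 0.367, 0.389 and 0.1) and rho of -0.541, -0.149 and 0.820 (exact permutation tests, p = 0.267, 0.778 and 0.0667). miR-181a-5p and miR-181a-1-3p gave r of -0.455, 0.899 and 0.804 (exact permutation tests, p = 0.333, 0.158 and 0.117) and rho of -0.439, -0.029 and 0.334 (exact permutation tests, p = 0.4, 0.983 and 0.583). The same 4 tied values of miR-181a-5p enter both pairs in CHR. With undetected values at the lowest detected value, r in PAP became -0.0509 with miR-181a-2-3p and -0.474 with miR-181a-1-3p.

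Over all 18 libraries, which include the differences between sample types, the entry most like miR-181a-5p was miR-181b-5p (r = 0.899). It was followed by miR-146a-5p, a brake on inflammatory signalling in leukocytes (r = 0.832), and miR-214-3p, a microRNA of mesenchymal cells (r = 0.813). The family's other arms came later in that order, with miR-181a-1-3p at 13 (r = 0.732), miR-181a-2-3p at 36 (r = 0.648), miR-181c-5p at 84 (r = 0.420) and miR-181d-5p at 125 (r = 0.218). For miR-181a-2-3p the leading entries were miR-92b-3p (r = 0.868), miR-222-3p (r = 0.861) and miR-1249-3p (r = 0.858), before miR-181b-5p at 14 (r = 0.734) and miR-181a-1-3p at 24 (r = 0.681). The libraries shared by all entries, with their depth and normalisation, and the undetected values at 3.32 enter each of these values.

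Whole pieces of tissue were sequenced, so fewer cells of a type and less RNA per cell cannot be told apart. Markers of several other cell types moved between the sample types. Of 7 leukocyte microRNAs 5 were tested, and miR-150-5p, a microRNA of mature lymphocytes, miR-342-3p and miR-146a-5p fell in PAP against CHR, with log2 differences of -2.62, -3.66 and -1.67. miR-155-5p was at the lowest value in all 18 libraries. The summed level of the list lay between 13.34 and 14.36 in CHR, between 9.42 and 12.17 in PAP, and between 11.49 and 13.24 in cuSCC, with mouse 10 the lowest in both lesions. In cuSCC against CHR miR-150-5p and miR-342-3p fell and miR-142-5p rose, and miR-142-5p also rose in cuSCC against PAP.

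Of 5 skeletal muscle microRNAs 3 were tested, and all 3 fell in PAP against CHR, 1 fell in cuSCC against CHR and 3 rose in cuSCC against PAP. Their summed level was 15.44 to 15.98 in CHR and 5.16 to 14.24 in cuSCC. In PAP none was detected in mice 3, 7 and 10, and the highest sum was 12.44. miR-499-5p was at the lowest value throughout. Of 5 fibroblast and smooth muscle microRNAs, 3 fell in PAP against CHR, 1 fell in cuSCC against CHR and 2 rose in cuSCC against PAP, with sums of 14.30 to 15.06 (CHR), 11.00 to 14.04 (PAP) and 12.53 to 15.51 (cuSCC).

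The endothelial pair, miR-126-3p and miR-126-5p, did not pass in PAP against CHR and rose in both comparisons of cuSCC, with sums of 7.84 to 9.35 (CHR), 7.53 to 9.004 (PAP) and 9.26 to 11.17 (cuSCC). Of the 7 epithelial microRNAs, 4 rose in PAP against CHR, 3 rose in cuSCC against CHR and 1 fell in cuSCC against PAP. The leukocyte, muscle and fibroblast lists were thus lower in the PAP libraries in which miR-181a-5p, miR-181b-5p and both passenger arms were lower. Their part in those differences was not tested.

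**Figure D4:**
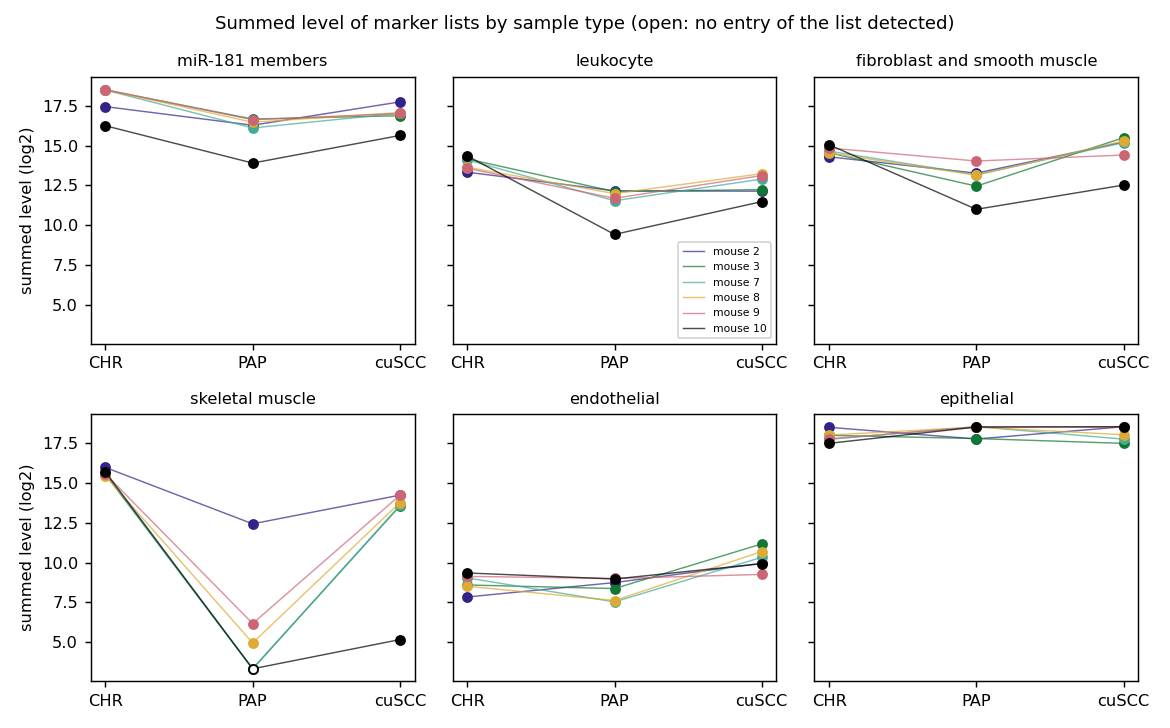
Summed level (log2 scale) of the 6 members and of 5 marker lists in each library, with lines joining the libraries of 1 mouse and open points where no entry of a list was detected, drawn at the lowest value. The leukocyte sum is 13.34 to 14.36 in CHR and 9.42 to 12.17 in PAP, and the epithelial sum is 17.50 to 18.55 over the 18 libraries.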

How the data were processed

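Small RNA libraries of 18 samples from 6 mice were used. The authors trimmed adapters, removed very short reads and those that ended in homopolymers, matched the remainder to miRBase by BLAST and divided each microRNA's reads by all usable reads, in ppm. The values as deposited are on the log2 scale. That they were quantile normalised, with a lowest value of 10 ppm, was read from the values. The labels name the mm10 build, which is GRCm38. Read totals are not used here, so no counting error is given.

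Entries above the lowest value in at least 6 libraries (293 of 1251) were compared in pairs of sample types by limma (version 3.58.1, R 4.3.3; functions lmFit and eBayes; two-sided, no block for mouse) and Benjamini-Hochberg adjustment, called at an adjusted p under 0.05. SE and 95% intervals are from the same fits, and the scripts were tested on simulated data. Summaries, correlations and plots used Python 3.11.15 with numpy 2.4.6, pandas 2.3.3, scipy 1.17.1 and matplotlib 3.10.9. Mice provided replicates. As the 3 samples of a number came from 1 mouse, the numbers pair the samples. Over all tested entries, the correlation of deviations from the group means within mice averaged 0.025 (PAP and CHR), -0.0676 (cuSCC and CHR) and 0.0582 (cuSCC and PAP). Single members could differ from this average. With mouse as a replicate block, the SE in PAP against CHR was 0.28 in place of 0.56 for miR-181a-5p, and 0.58 in place of 0.57 for miR-181a-1-3p.

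The members, the marker lists and the tests were chosen with earlier results of these data known. Named entries are the 6 members, the 4 other arms of the family, marker entries, and the 3 entries most correlated with miR-181a-5p and with miR-181a-2-3p. Alternatives were other filters, 1 fit over the 3 sample types, a replicate block for mouse, centring, other treatments of low values, the study's thresholds and leaving out each mouse.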

Additional observations from a re-analysis of the deposited data

Results flagged for a closer look

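Each group of 6 libraries was checked for a lowest or highest value that stood far from the others (Dixon's test). Of 18 groups, 3 held such a value, where chance gives about 1 in 20. All 3 were the PAP library of mouse 10, which also had the fewest detected entries. There miR-181a-5p was at 13.65, with the nearest PAP library at 15.98. miR-181b-5p was at 8.91, with the nearest at 10.82. The third, miR-181a-1-3p, was undetected and stands at 3.32 with the nearest library at 6.11, but this gap is set by the lowest value of the table: the lowest detected value of that library was 6.83, so it does not show a level apart from the others. Without mouse 10, all 3 still fell in PAP against CHR in limma.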

How the results depend on the processing

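The 198 values of the 18 member differences under other settings moved by less than the spread (SD) between replicates. So did the 63 values of the differences between arms. Most of these values could not have done otherwise. Leaving out a mouse, which gave 108 of the first and 54 of the second, cannot move a result by that much. The replicate block and the 1 fit over the 3 sample types leave a member difference unchanged. An undetected value also widened the spread: in PAP the SD of miR-181a-1-3p was 1.36, but 0.40 without mouse 10. Its PAP to CHR difference moved from -1.81 to -1.22 and -1.07 under other treatments of low values. No difference that was called turned its direction. Counts also changed. With no filter on low values, 2 members (miR-181a-2-3p and miR-181a-5p) fell in PAP against CHR in place of 4, where 32 of 433 entries fell. In cuSCC against PAP, 2 entries were then called in place of 34. With the study's thresholds on the limma p, 2 members were called in cuSCC against CHR, where 151 entries were called in all. In cuSCC against PAP 1 member, miR-181a-1-3p, was called, where 83 entries were called in all. At a lowest value of 100 ppm, 57 entries were called in PAP against CHR, 80 in cuSCC against CHR and 2 in cuSCC against PAP, in place of 95, 124 and 34. In cuSCC against PAP, 21 entries were called with at least 12 libraries required and 80 with undetected values at the lowest detected value. With mouse as a replicate block, 3 members were called in PAP against CHR (miR-181a-1-3p was lost), where 77 of 293 entries were called in all. In cuSCC against CHR 2 members were called (miR-181a-5p was added), where 110 of 293 entries were called in all. No other member's call changed. The cause was not tested.

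With 1 mouse left out, 1 to 4 members and 55 to 79 entries were called in PAP against CHR, 1 to 3 members and 77 to 129 entries in cuSCC against CHR, and 0 to 1 members and 1 to 59 entries in cuSCC against PAP. miR-181a-2-3p was called in both comparisons with CHR under each of these settings. Without the 2 mice farthest from the median, r turned for miR-181a-5p with miR-181b-5p in PAP (-0.427) and cuSCC (-0.362), with miR-181a-1-3p in PAP (-0.649) and cuSCC (-0.0112) and with miR-181a-2-3p in PAP (-0.759), and for the passenger arms in cuSCC (-0.287). With undetected values at the lowest detected value it turned in PAP for miR-181a-5p with miR-181a-1-3p (-0.474) and with miR-181a-2-3p (-0.0509). The read depth of each library is not known here, so the precision of the passenger arms near the lowest detected values cannot be given.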
